A study of Mus musculus with 16 samples.

Results

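The interleukin-1 family and the inflammasome were examined as 9 genes, listed by name: the ligands Il1a, Il1b, Il18 and Il33, the antagonist Il1rn, the receptor Il1r1, the sensor Nlrp3 and the caspases Casp1 and Casp4. Of these, 8 had a row with their symbol in the array table, 1 row each, among 19938 genes measured; Il1r1 had 0 such rows and was not analysed here. Interleukin-1 alpha and beta are made as precursors, bind the receptor encoded by Il1r1 and switch on inflammatory genes through the adaptor MyD88 and NF-kB, and the antagonist encoded by Il1rn occupies that receptor without signalling. Inflammasomes are protein assemblies, such as those of NLRP3, that activate caspase-1, which cuts the precursors of interleukin-1 beta and interleukin-18, whereas the caspase encoded by Casp4 responds to bacterial lipopolysaccharide inside the cell. In kidney injury these proteins are studied as a link between dying tubule cells and the entry of leukocytes.

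The arrays measured RNA of halved mouse kidneys, 1 array per labelled biological replicate. All mice belonged to a transgenic line in which doxycycline induces deletion of Vhl, the gene of the von Hippel-Lindau protein that marks hypoxia-inducible factors for breakdown, selectively in renal tubule cells, so that leukocytes and vessels are not its target. Control mice (n = 3) were untreated and carry the genotype label wt. The VHL-KO group (n = 3) received a subcutaneous dose of doxycycline (0.1 mg for each 10 g of mouse) with 4 days left until kidney collection. The AKI group (n = 5, also labelled wt) received glycerol at 50% in a muscle of the left hind limb, 0.05 ml for each 10 g of mouse, which breaks down muscle and causes acute kidney injury; water was taken away 20 h ahead of glycerol and returned 24 h later. The VHL-KO/AKI group (n = 5) had both treatments, and the interval from glycerol to collection was not among the labels used here. Mice were of both sexes; no group received doxycycline without the deletion or water withdrawal without glycerol, and the labels give no age. All levels are log2 values of a gene's probe set, which allow a gene to be compared between arrays but not with another gene.

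Array medians lay between 5.92 and 6.03. Vhl lay between 7.01 and 7.36 in the control and AKI arrays and between 6.35 and 6.70 in the VHL-KO and VHL-KO/AKI arrays, and the proximal tubule list, which checks the tissue label, had a mean level of 12.16 in controls. The female-specific RNA Xist ranged over 10.23 to 11.47 without injury (6 arrays) but over 4.16 to 5.08 with it (10 arrays), so that injured and uninjured kidneys also differed in sex-linked signal, and the parts of injury and sex cannot be told apart. Control 3 held Y-linked signal beside Xist (mean of Uty, Eif2s3y and Kdm5d 7.43, against 4.81 to 5.01 in the other uninjured arrays). AKI 4 stood apart from its group, with Havcr1, the gene of kidney injury molecule 1, at 9.30 against 12.23 to 13.13 in the other AKI arrays.

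Il1b and Il1rn are the members called between AKI and control (limma adjusted p under 0.05), where injury and sex cannot be told apart. The sequences before their transcription starts are shown because both genes are known targets of inflammatory transcription factors. Each run is the 250 bases before a start in the RefSeq annotation of build GRCm38.p6, 5′ to 3′ on the gene's strand. Capitals mark matches, on either strand, to GGGA and CC with any 4 bases between them (NF-kB), to TGANTCA (AP-1), TTGCNNAA (C/EBP), AGGAAGT (PU.1) or ACGTG (HIF). Il1b lies on the minus strand (window chr2:129371140-129371389), and Il1rn lies on the plus strand with an upstream start (chr2:24336610-24336859) and a downstream one (chr2:24345121-24345370); another annotated window, chr2:24345041-24345290, overlaps the downstream one, held 0 matches and is not printed.
Il1b: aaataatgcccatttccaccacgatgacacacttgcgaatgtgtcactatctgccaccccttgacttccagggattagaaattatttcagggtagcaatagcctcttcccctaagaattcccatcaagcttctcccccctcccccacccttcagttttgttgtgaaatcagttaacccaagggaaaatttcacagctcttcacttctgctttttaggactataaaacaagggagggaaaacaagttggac
Il1rn, upstream start: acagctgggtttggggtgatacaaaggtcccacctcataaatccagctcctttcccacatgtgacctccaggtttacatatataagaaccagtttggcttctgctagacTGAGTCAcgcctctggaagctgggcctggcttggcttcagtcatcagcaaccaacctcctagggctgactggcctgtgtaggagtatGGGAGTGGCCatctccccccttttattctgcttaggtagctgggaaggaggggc
Il1rn, downstream start: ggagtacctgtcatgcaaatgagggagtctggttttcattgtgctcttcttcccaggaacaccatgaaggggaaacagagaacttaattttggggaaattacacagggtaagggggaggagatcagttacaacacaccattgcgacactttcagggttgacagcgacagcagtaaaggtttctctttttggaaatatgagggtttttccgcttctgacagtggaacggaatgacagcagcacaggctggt
The upstream Il1rn window held 1 NF-kB match, GGGAGTGGCC from base 54 to base 45 before the start, and 1 AP-1 match, TGAGTCA from base 141 to base 135. The Il1b window and the downstream Il1rn window held 0 matches, which says only that these letters do not occur there. Among 32851 windows of the same length, 17.6% held the NF-kB letters, 6.75% AP-1, 9.56% C/EBP, 7.69% PU.1 and 16.6% HIF. Among the members not called, Casp4 held the NF-kB match GGGATTTCCC from base 92 to base 83 before 1 of its annotated starts, a site that the overlapping window of its other start also holds. Nlrp3 held the NF-kB match GGGAACCCCC from base 186 to base 177 and a HIF match. Il1a held an AP-1 match, TGACTCA, from base 12 to base 6, Il33 a C/EBP match, TTGCATAA, from base 85 to base 78, and Casp1 a HIF match on both strands, whereas Il18 held 0. Il1r1, which had no level, held a C/EBP and a HIF match. A match describes letters and is no evidence of binding.

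AKI against control asked what glycerol injury changed in kidneys with intact Vhl. The antagonist gene Il1rn rose 2.49-fold and the ligand gene Il1b rose 1.62-fold. The other 6 measured members did not pass, among them both caspases and Nlrp3. A gene was called at an adjusted p under 0.05 in limma, with Benjamini-Hochberg adjustment over all 19938 genes. The 2 of 8 members called make 25%, and 28.1% of all genes were called in this comparison, so the share is near that of all genes; both called members were higher, as were 13.2% of all genes. The median difference of the 8 members was 0.30 on the log2 scale, against 0.02 over all genes.

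Il1rn stood at 5.69, 5.80 and 5.90 in controls 1 to 3. In AKI arrays 1 to 5 it stood at 7.78, 7.18, 6.86, 6.17 and 7.58. Every AKI array was above every control, and AKI 4, the array with the lowest Havcr1 of its group, had the lowest value. The group means were 5.80 ± 0.10 (SD, n = 3) and 7.11 ± 0.64 (n = 5), a log2 difference of 1.31 (SE 0.26, 95% interval 0.76 to 1.87, limma adjusted p = 0.00167).

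Il1b, the gene of interleukin-1 beta, stood at 5.41, 5.35 and 5.29 in controls 1 to 3 and at 6.36, 5.93, 5.66, 5.88 and 6.37 in AKI arrays 1 to 5. The groups did not overlap, and the spread of the AKI arrays (SD 0.31) was larger than that of the controls (SD 0.059). The difference was 0.70 (SE 0.20, 95% interval 0.26 to 1.13, limma adjusted p = 0.0181). Groups that do not overlap were found for these 2 of 8 members (25%) and for 27.3% of all genes. The Il1b call ended without control 2 (adjusted p = 0.0533) or control 3 (adjusted p = 0.0619). With the sex-linked level of each array as a covariate, which nearly follows injury here, neither gene passed: Il1rn differed by 0.20 and Il1b by 0.74 (adjusted p = 1 for both when rounded to 3 digits).

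The ligand genes Il18 and Il33 were higher on average without passing. Il18, whose product is activated by caspase-1, stood at 5.64, 5.96 and 6.05 in controls and at 6.44, 6.24, 6.0, 5.91 and 6.18 in AKI. The groups overlapped, with a difference of 0.27 (95% interval 0.01 to 0.54, limma adjusted p = 0.118). Il33, which encodes a nuclear cytokine released by damaged cells, stood at 7.18, 7.74 and 7.22 in controls and at 8.01, 8.07, 7.50, 6.84 and 8.14 in AKI. AKI 4 was below every control, and 3 of the other AKI arrays were above every control. The difference was 0.33 (95% interval -0.17 to 0.83, limma adjusted p = 0.333). Without AKI 4 both genes passed, Il33 at 0.55 (adjusted p = 0.0114) and Il18 at 0.33 (adjusted p = 0.0413), which made 4 members called. The share of all genes called in that fit was not computed. With the sex-linked covariate the Il18 difference turned to -0.45 and did not pass.

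Il1a, Nlrp3 and Casp1 differed little. Il1a, which encodes the other ligand of the interleukin-1 receptor, ranged from 4.35 to 4.37 in controls and from 4.31 to 4.63 in AKI (difference 0.06, 95% interval -0.11 to 0.22). Nlrp3 ranged from 4.47 to 4.54 and from 4.38 to 4.60 (difference -0.01, 95% interval -0.16 to 0.13). The average levels of Il1a and Nlrp3 over the 16 arrays lay at percentiles 8.93 and 12.3 of all genes, and the table holds no detection call, so whether either was above background is not known here. Casp1 ranged from 5.00 to 5.08 and from 4.94 to 5.07, a difference of -0.04 (95% interval -0.37 to 0.30). Its average level lay at percentile 32 of all genes. Casp4 ranged from 5.09 to 5.32 and from 5.28 to 6.11, highest in AKI 4, with a difference of 0.35 (95% interval -0.10 to 0.79, limma adjusted p = 0.246) that was 0.21 without AKI 4.

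**Figure D1:**
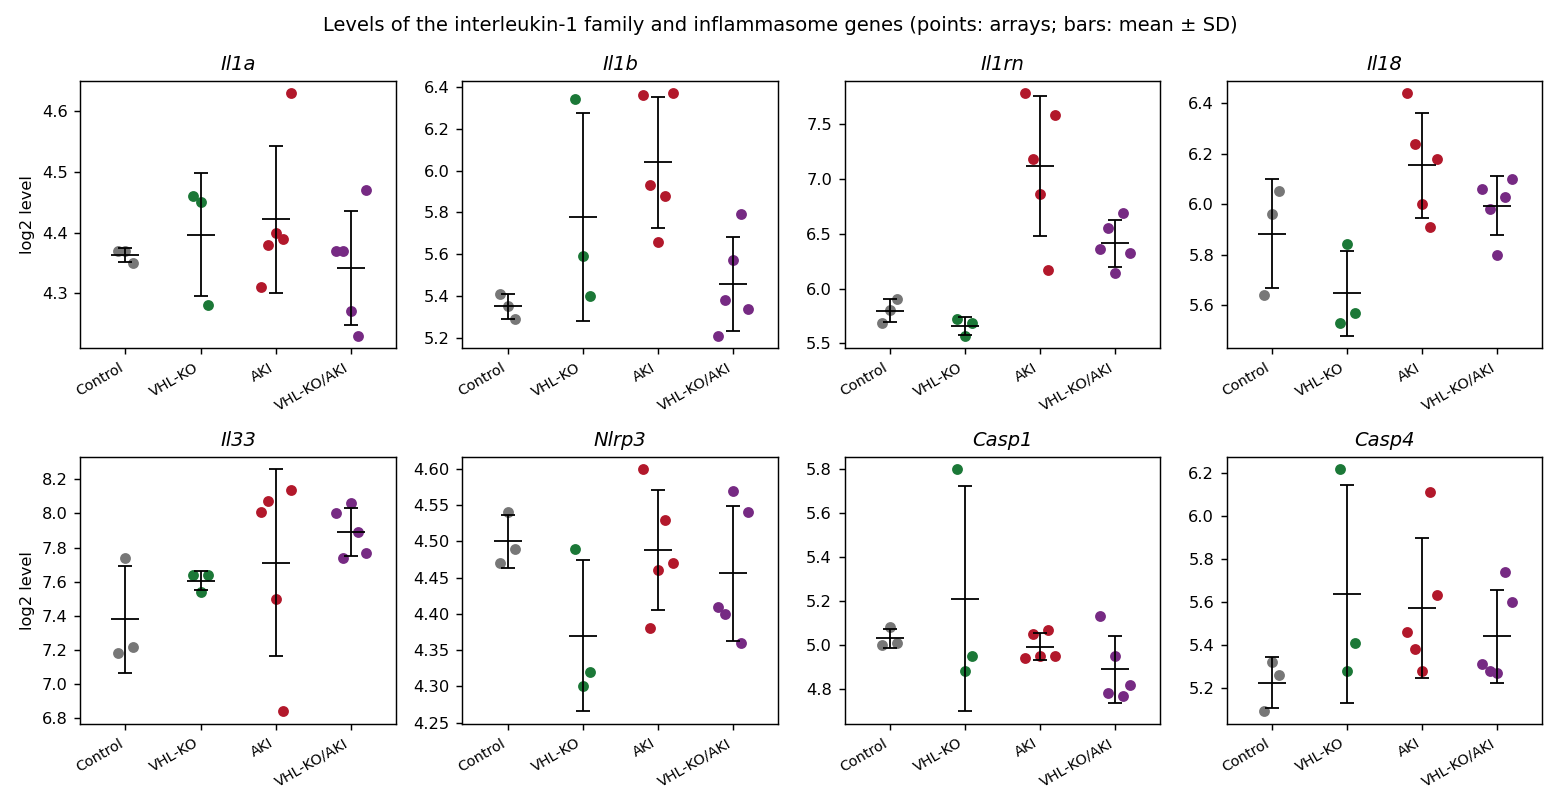
Log2 level of each of the 8 measured genes by group, with 1 point per array and the mean ± SD as bars; each panel has its own axis, which does not start at 0. Il1rn and Il1b are higher in all 5 AKI arrays than in the 3 controls, whereas Il1a, Nlrp3 and Casp1 differ by 0.06, -0.01 and -0.04.

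Markers of some leukocytes moved in the same arrays, where 28.1% of all genes were called and 13.2% were higher. Of 10 neutrophil genes 7 rose in AKI and 0 fell (70% called), and the mean level of the list lay between 4.58 and 4.63 in controls and between 5.08 and 5.99 in AKI, with AKI 4 highest. The neutrophil receptor gene Cxcr2 rose by 1.83 (limma adjusted p = 0.00316), while Ly6g differed by 0.21 (adjusted p = 0.127) and Ltf by 0.07. Control means of Cxcr2, Ly6g and Ltf were low (4.34, 4.52 and 4.31), and whether these were above background is not known here. Of 11 macrophage and monocyte genes 3 rose (Cd68, Cd14 and Itgam) and 1 fell (Csf1r, 36.4% called in all), with list means from 6.38 to 7.05 in controls and from 6.46 to 7.32 in AKI. Of 7 lymphocyte genes 0 rose and 1 fell (Nkg7, 14.3% called), with list means from 4.87 to 5.11 in controls and from 4.66 to 4.81 in AKI. Of 8 proximal tubule genes 7 fell (87.5% called). The part of these cells in the levels of Il1b and Il1rn was not tested, and in whole tissue fewer cells of a type and less RNA per cell cannot be told apart.

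Other genes of the pathway, 63 in 5 lists by role of which 57 had a row, divided in AKI as follows: 22 rose, 3 fell and 32 did not pass (43.9% called, beside 28.1% of all genes). With the sex-linked covariate, 0 of these 25 calls were left, for the pathway genes described next as for Il1b and Il1rn. That covariate nearly follows injury here, and the share of all genes called with it was not computed. Whether the loss is particular to these genes was therefore not tested. The median difference of the 57 genes was 0.17, against 0.02 over all genes. The lists were chosen with earlier results of these data known, so a share above that of all genes is no independent result. Among 8 receptor and decoy genes 3 rose and 2 fell (62.5% called). Il1r2, a decoy receptor that binds interleukin-1 without signalling, rose by 0.85 (SE 0.27, limma adjusted p = 0.0265). Sigirr, an inhibitory receptor of the family, fell by 0.60 (SE 0.11, adjusted p = 0.00109). Il18bp, whose secreted product neutralises interleukin-18, fell by 0.37 (SE 0.11, adjusted p = 0.0175).

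Ligands of the interleukin-36 branch moved as well. Il1f6, the older symbol for the gene of interleukin-36 alpha, ranged from 4.37 to 4.58 in controls and from 4.63 to 6.73 in AKI, and rose by 1.38 (SE 0.32, limma adjusted p = 0.00503). Il1f9, the gene of interleukin-36 gamma, rose by 0.68 (SE 0.19, adjusted p = 0.0155). The other 3 of these 5 ligand genes did not pass, with a list median of 0.00.

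Of 10 signalling genes 5 rose and 0 fell (50% called, median 0.27). Irak3, a kinase-like protein that restrains the receptor complex, rose by 0.92 (SE 0.23, limma adjusted p = 0.00634). The adaptor gene Myd88 rose by 0.89 (SE 0.15, adjusted p = 0.000673). Rela, an NF-kB subunit, rose from 8.83 ± 0.05 to 9.72 ± 0.13 (adjusted p = 0.000184).

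Among 18 inflammasome sensors, adaptors and effectors 4 rose, 1 fell and 13 did not pass, with a median of 0.03; the 27.8% called is near the 28.1% of all genes. Nlrc4, the sensor partner of the NAIP proteins, rose by 0.82 (SE 0.13, limma adjusted p = 0.000337). P2rx7, an ATP-gated channel upstream of NLRP3, rose by 0.78 (SE 0.12, adjusted p = 0.000256), and Nlrp6 fell by 0.90 (SE 0.21, adjusted p = 0.00515). The adaptor gene Pycard (-0.36, adjusted p = 0.1105) and Gsdmd, which encodes the pore former gasdermin D (-0.07, adjusted p = 0.562), did not pass.

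Of 16 genes known to respond to interleukin-1, 8 rose and 0 fell (50% called), with a median of 0.47. Nfkbiz, a regulator of secondary NF-kB targets, rose by 1.45 (SE 0.21, limma adjusted p = 0.000196). Ptgs2, the gene of cyclooxygenase-2, rose by 1.38 (SE 0.22, adjusted p = 0.000352), and the cytokine gene Il6 by 1.13 (SE 0.23, adjusted p = 0.00184). These genes also respond to other signals.

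**Figure D2:**
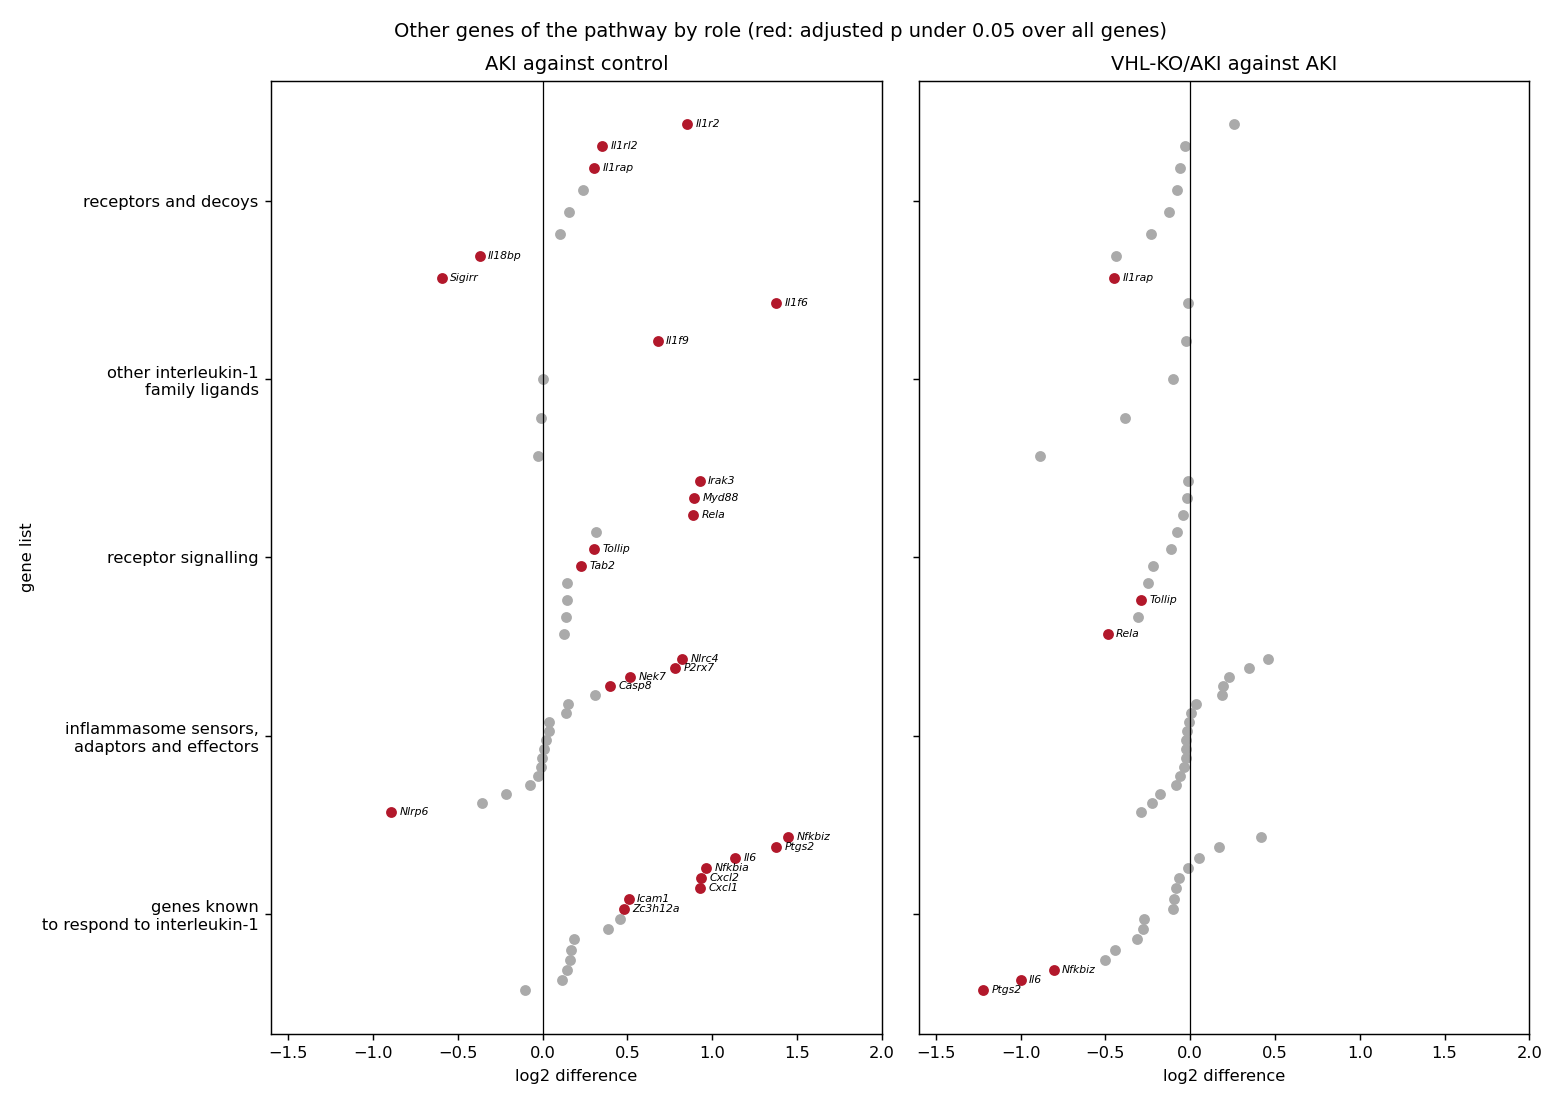
Log2 differences of 57 other pathway genes, 1 point per gene, arranged by list, in AKI against control and in VHL-KO/AKI against AKI; red points passed limma at an adjusted p under 0.05 over all genes. In AKI 22 genes rose and 3 fell, and in VHL-KO/AKI against AKI 6 fell and 0 rose; both comparisons contain the same 5 AKI arrays.

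VHL-KO/AKI against AKI asked how Vhl deletion changed the injured kidney. Il1b and Il1rn had lower mean levels in VHL-KO/AKI (log2 differences -0.58 and -0.70), but neither passed over all genes. None of the 8 members was called by limma (0 of 8, beside 3.88% of all genes), 2 had an unadjusted p under 0.05, and 1 by the exact permutation test. For the unadjusted counts the share of all genes was not computed. Groups did not overlap for 0 of 8 members and for 3.78% of all genes. These values share the 5 AKI arrays with AKI against control. The median difference of the members was -0.12, against -0.01 over all genes.

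Il1b stood at 5.21, 5.38, 5.57, 5.79 and 5.34 in VHL-KO/AKI arrays 1 to 5. Array 4 lay within the AKI range, which began at 5.66, and the other 4 were below every AKI array. The difference was -0.58 (SE 0.18, 95% interval -0.96 to -0.21, limma adjusted p = 0.0791). The exact permutation test over the 10 arrays, 2-sided, gave p = 0.0159. Left-out arrays moved the call: the limma adjusted p was 0.0419 without AKI 4 and 0.0398 without VHL-KO 1, an array that enters through the shared spread.

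Il1rn stood at 6.36, 6.55, 6.14, 6.69 and 6.32 in VHL-KO/AKI. Of the AKI arrays only AKI 4, at 6.17, lay within that range. The difference was -0.70 (SE 0.23, 95% interval -1.18 to -0.22, limma adjusted p = 0.1, exact permutation p = 0.0556). Without AKI 4 the groups did not overlap, and the gene was 0.93 lower on average (difference -0.93, adjusted p = 0.00208).

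The remaining members differed by less. Il18 differed by -0.16 (95% interval -0.39 to 0.06), with VHL-KO/AKI arrays from 5.80 to 6.10. Il33 ranged from 7.74 to 8.06 in VHL-KO/AKI, with a difference of 0.18 (95% interval -0.25 to 0.62) that was -0.04 without AKI 4. Il1a differed by -0.08 (95% interval -0.22 to 0.06), Nlrp3 by -0.03 (-0.16 to 0.09), Casp1 by -0.10 (-0.39 to 0.19) and Casp4 by -0.13 (-0.52 to 0.25; 0.0016 without AKI 4).

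Among the other 57 pathway genes 6 fell and 0 rose (10.5% called, beside 3.88% of all genes, 1.4% lower), and their median difference was -0.08. The fall was largest for Ptgs2, which ranged from 7.77 to 8.42 in AKI and from 6.48 to 7.31 in VHL-KO/AKI (difference -1.22, SE 0.19, limma adjusted p = 0.00375). Il6 ranged from 4.81 to 6.16 and from 4.25 to 4.67 (2-fold lower, SE 0.20 on the log2 scale, adjusted p = 0.0147), and Nfkbiz fell by 0.81 (adjusted p = 0.0283). For each of these 3 genes the groups did not overlap. Il1rap, the co-receptor that interleukin-1 and interleukin-33 receptors share, fell by 0.45 (SE 0.08, adjusted p = 0.00804), Rela by 0.49 (adjusted p = 0.0284) and Tollip, which restrains the receptor complex, by 0.29 (adjusted p = 0.0315). Of the lists without a call, the smallest p among ligands was that of Il1f6 (difference -0.88, adjusted p = 0.0938) and among inflammasome genes that of Casp8, a caspase of cell death pathways (difference 0.35, adjusted p = 0.0594). Without AKI 4, 10 of the 57 were called, and without AKI 3, VHL-KO/AKI 1, 2 or 3, 3 were called. The share of all genes called in these fits was not computed.

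Of 10 neutrophil genes 2 fell and 0 rose in the same comparison (20% called, beside 3.88% of all genes, 1.4% lower). S100a9 fell by 1.07 (limma adjusted p = 0.0104), and S100a8 by 0.55 (adjusted p = 0.0496) with overlapping groups. The other 8 did not pass. The list mean lay between 4.66 and 5.26 in VHL-KO/AKI against 5.08 to 5.99 in AKI. Of 11 macrophage and monocyte genes 0 passed in limma and 3 had an unadjusted p under 0.05. All 3 were higher in VHL-KO/AKI (Csf1r by 0.47, Mrc1 by 0.26 and C1qb by 0.495), and the list median was 0.257. The list means lay between 6.76 and 7.19 in VHL-KO/AKI and between 6.46 and 7.32 in AKI. Xist differed by -0.10 between these groups (95% interval -0.47 to 0.26). The part of neutrophils in the Il1b and Il1rn values was not tested.

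**Figure D3:**
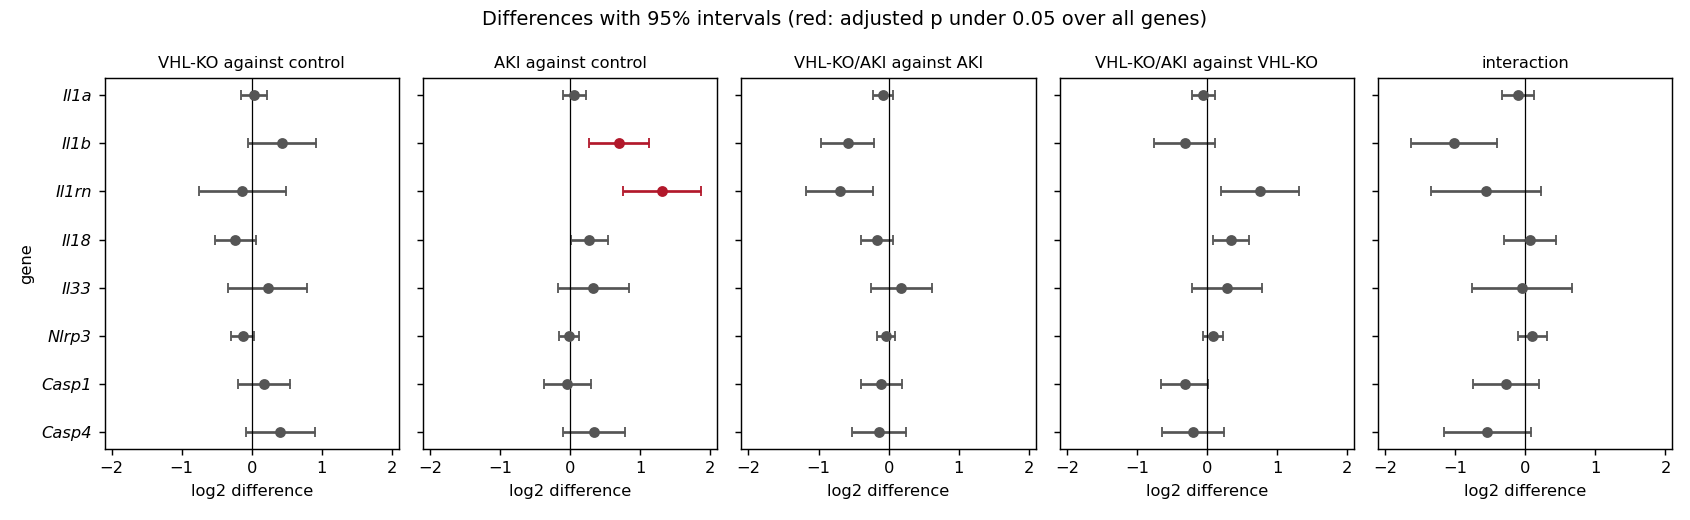
Log2 differences of the 8 members in the 5 comparisons with 95% intervals from limma; red marks an adjusted p under 0.05 over all genes. Il1b and Il1rn passed in AKI against control (0.70 and 1.31), and in VHL-KO/AKI against AKI their intervals lay below 0 without passing.

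In uninjured kidneys, VHL-KO was set against control to ask what the deletion itself changed, and no member passed. Vhl itself, the deleted gene, differed by -0.40 and did not pass there either (limma adjusted p = 0.0565). A missing call in this comparison is therefore no evidence of an unchanged gene. Of the 8 members 0 were called by limma (beside 0.527% of all genes), 0 had an unadjusted p under 0.05 and 0 an exact permutation p under 0.05, where 3 against 3 arrays cannot go below 0.1. Groups did not overlap for 0 of 8 members and for 17.2% of all genes. The 1 array that stood apart was VHL-KO 1. Il1b stood at 6.34, 5.59 and 5.40 in VHL-KO arrays 1 to 3, Casp1 at 5.80, 4.88 and 4.95, and Casp4 at 6.22, 5.28 and 5.41. VHL-KO 1 was thus the highest of all 16 arrays for Casp1 and Casp4 and near the highest AKI values for Il1b.

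Differences and intervals in that comparison were 0.43 (-0.05 to 0.92) for Il1b, 0.18 (-0.19 to 0.55) for Casp1 and 0.41 (-0.09 to 0.90) for Casp4. Without VHL-KO 1 they were 0.15, -0.12 and 0.12. The same array had the highest mean of the 7 lymphocyte genes, 5.78 against 4.62 to 5.11 in the other 15 arrays, and its neutrophil mean, 4.58, was among the lowest. Its mean of the 11 macrophage and monocyte genes was 7.28, against 6.61 and 6.66 in VHL-KO 2 and 3. Only AKI 1 had a higher mean of that list (7.32). The part of lymphocytes, macrophages or monocytes in these values was not tested. Il1rn, at 5.72, 5.57 and 5.69, was not high in VHL-KO 1 (difference -0.14, 95% interval -0.76 to 0.48). Il18 differed by -0.23 (-0.53 to 0.06), Il33 by 0.23 (-0.33 to 0.79), Nlrp3 by -0.13 (-0.29 to 0.03) and Il1a by 0.03 (-0.15 to 0.21). Of the 57 other pathway genes 0 were called by limma and 2 had an unadjusted p under 0.05. The smallest p of each list belonged to Casp8 (difference 0.37, adjusted p = 0.334), the interleukin-36 receptor gene Il1rl2 (0.25, adjusted p = 0.515), the endothelial adhesion gene Sele (0.18, not called), the kinase gene Irak2 (-0.27, adjusted p = 0.687) and the ligand gene Il1f10 (-0.09, adjusted p = 0.845).

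**Figure D4:**
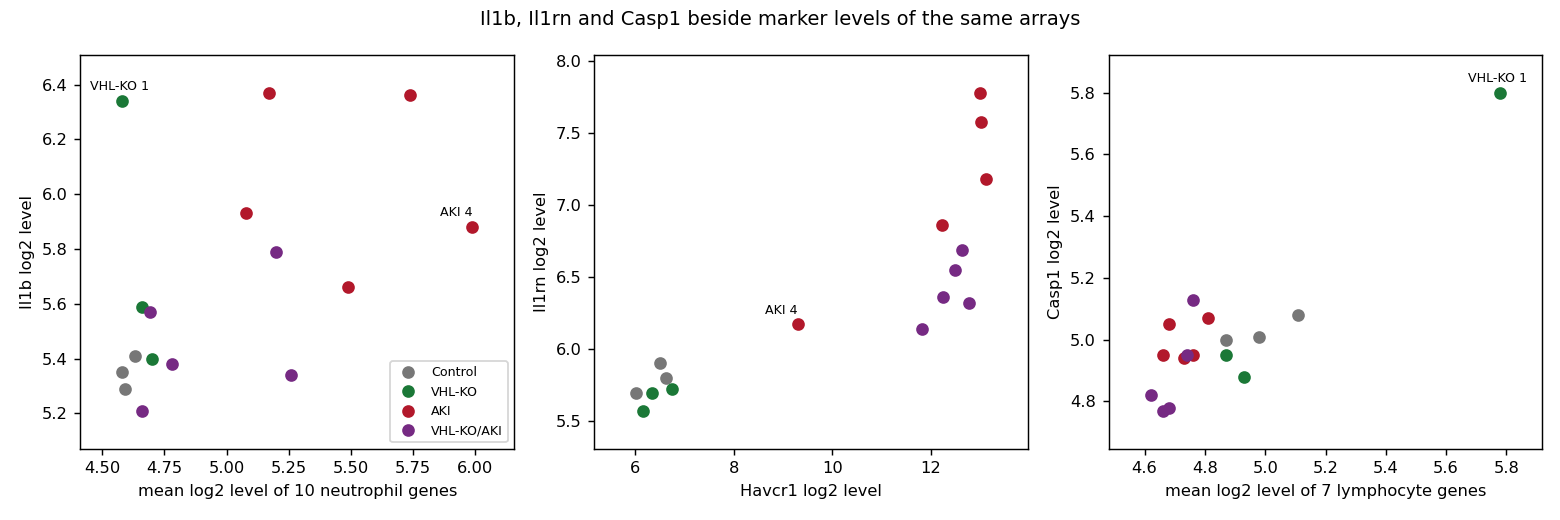
Levels of Il1b, Il1rn and Casp1 in each of 16 arrays beside the mean level of 10 neutrophil genes, the level of Havcr1 and the mean level of 7 lymphocyte genes; all axes are log2. VHL-KO 1 is high in Casp1 (5.80) and in the lymphocyte mean (5.78), and AKI 4 has the highest neutrophil mean (5.99) and the lowest Havcr1 (9.30) of the injured arrays.

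VHL-KO/AKI against VHL-KO asked what injury changed after the deletion. No member was called by limma (0 of 8, beside 13.6% of all genes), 2 had an unadjusted p under 0.05 and 3 an exact permutation p under 0.05. For the unadjusted counts the share of all genes was not computed. Il1rn was above every VHL-KO array in all 5 VHL-KO/AKI arrays, with a difference of 0.75 (SE 0.26, 95% interval 0.20 to 1.31, limma adjusted p = 0.0695, exact permutation p = 0.0179). Il1rn passed in 9 of 28 alternatives, among them a fit of these 2 groups alone (adjusted p = 0.003145) and centring (adjusted p = 0.0372). Centring raised the difference of every gene here, and the median over all genes moved from -0.0095 to 0.067. With the sex-linked covariate the Il1rn difference turned to -0.56 (adjusted p = 1 when rounded to 3 digits).

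Il33 was also above every VHL-KO array in all VHL-KO/AKI arrays (difference 0.28, 95% interval -0.22 to 0.79, limma adjusted p = 0.491). These 2 of 8 members (25%) stand beside 24.3% of all genes whose groups did not overlap, 9.42% in the higher direction. Il18 differed by 0.34 (95% interval 0.08 to 0.61, adjusted p = 0.0813), which turned to -0.51 with the sex-linked covariate. Il1b was lower on average, by 0.32 with VHL-KO 1 included (difference -0.32, 95% interval -0.75 to 0.11) and by 0.04 without it (difference -0.04). Casp1 differed by -0.32 (-0.65 to 0.01) and Casp4 by -0.20 (-0.64 to 0.25); without VHL-KO 1 these were -0.025 and 0.097. Nlrp3 differed by 0.08 (-0.06 to 0.23) and Il1a by -0.05 (-0.21 to 0.11).

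Of the 57 other pathway genes 5 rose and 1 fell there (10.5% called, beside 13.6% of all genes), and 0 were called with the sex-linked covariate. That covariate nearly follows injury here, and the share of all genes called with it was not computed. Nlrc4 rose by 0.64 (SE 0.13, limma adjusted p = 0.00461), Nek7, a kinase that binds NLRP3, by 0.48 (SE 0.10, adjusted p = 0.00664), and the neutrophil chemokine gene Cxcl1 by 0.70 (SE 0.20, adjusted p = 0.0287). Naip5, which senses bacterial flagellin, fell by 0.55 (SE 0.15, adjusted p = 0.0237). In the lists without a call the smallest p belonged to Rela (difference 0.39, adjusted p = 0.0558), Sigirr (-0.27, adjusted p = 0.13) and Il1f6 (0.49, adjusted p = 0.369).

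Whether the injury difference itself depended on the deletion was tested by the interaction, that is VHL-KO/AKI minus AKI, less VHL-KO minus control. For Il1b it was -1.02 (SE 0.29, 95% interval -1.63 to -0.40, limma adjusted p = 0.182), and for Il1rn -0.56 (95% interval -1.35 to 0.22, adjusted p = 0.596). No member was called (0 of 8, beside 0.01% of all genes) and 1, Il1b, had an unadjusted p under 0.05. Casp4 had an interaction of -0.54 (95% interval -1.17 to 0.09), and the other 5 members lay between -0.28 (Casp1) and 0.10. Without VHL-KO 1 the interactions were -0.25 for Casp4, 0.013 for Casp1 and -0.73 for Il1b. With array weights Il1b passed (-1.16, limma adjusted p = 0.035). Among the other pathway genes Ptgs2 had the smallest p (interaction -1.38, adjusted p = 0.116), and 0 of 57 were called by limma, with 11 at an unadjusted p under 0.05. The share of all genes at that unadjusted p was not computed. Without AKI 4, 6 of the 57 were called, without VHL-KO/AKI 5, 2, and with array weights 6. The share of all genes called in these fits was not computed. In the other lists the smallest p belonged to P2rx7 (-0.54, adjusted p = 0.209), Rela (-0.49, adjusted p = 0.293), Il1rl2 (-0.28, adjusted p = 0.422) and Il1f6 (-0.89, adjusted p = 0.467).

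Ordered by mean level, Il1b ran from control (5.35) through VHL-KO/AKI (5.46) and VHL-KO (5.78) to AKI (6.04), and the ranges of neighbours overlapped in each step. Il1rn ran from VHL-KO (5.66) and control (5.80), which overlapped, to VHL-KO/AKI (6.41) and AKI (7.11), which overlapped through AKI 4; the 6 uninjured arrays lay below the 10 injured arrays. Within the 10 injured arrays the levels of Il1b and Il1rn varied together (Pearson r = 0.81, and 0.58 over 16 arrays), as did those of Il1rn and Il18 (r = 0.86 and 0.83). Over the 16 arrays the genes with levels most like Il1rn were Adam8 (r = 0.99), Grp (r = 0.97) and Flnc (r = 0.97), with r = 0.98, 0.96 and 0.96 in the injured arrays. Those most like Il1b were Fgr (r = 0.89), Zfp947 (r = 0.87) and Ccl2 (r = 0.81), with r = 0.89, 0.86 and 0.76. These correlations describe arrays that share the group differences and carry no test.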

How the data were processed

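The authors deposited a table of log2 levels per probe set; per the submitters' processing notes, Partek 6.4 and RMA (array background correction, quantile scaling and probe summary) were used. For order, settings and build, nothing was found here. No 2 arrays held identical values (0 pairs), and 0 columns lacked a sample. Rows with 1 gene symbol in the probe table (21789 of 35556) were kept, and the row with the highest mean stood for a gene (19938 genes). Groups came from the sample titles. A single limma 3.58.1 model (R 4.3.3) held a mean for each of the 4 groups (12 residual and 2.83 prior degrees of freedom), 2-sided, with Benjamini-Hochberg adjustment over all genes; the fit was tested on simulated data. Exact permutation tests were run for each member. Counts at an unadjusted or exact permutation p, and counts in alternative fits, have no share of all genes beside them. Those shares were not computed. The labels call the replicates biological, and their number limits the precision. The members and lists were chosen with earlier results of these data known. Named genes are all members and, from each list and comparison, up to 3 called genes with the largest difference, or the gene with the smallest p; Pycard, Gsdmd and the named genes of the marker lists were added after their values were seen, and the 3 most correlated genes were taken for each called member. Same-numbered replicates did not vary together (r above 0.1 in 3 of 20 pairs), so they were not paired. Alternatives covered rows, dim genes, scaling, variance, weights, arrays and the sex-linked level. Promoter windows came from RefSeq for all 9 genes; windows were trimmed to 250 bases.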

Additional observations from a re-analysis of the deposited data

Results flagged for a closer look

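Il1a in AKI 5 stood at 4.63, above the 4.31 to 4.40 of the other AKI arrays. The gap to the nearest array took 0.725 of the group's range. Chance sets apart about 1 in 20 such groups.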

How the results depend on the processing

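Il1rn in AKI against control passed in each alternative but the sex-linked covariate, with differences from 0.20 to 1.60. Of 1137 alternative values of the 40 member differences, 1058 kept their direction and side of the threshold, 34 newly passed, 5 no longer passed and 40 changed sign; 0 of the sign changes passed. Part of this agreement was fixed in advance. Each measured member has 1 row, so the mean of all rows changed no difference. Leaving out an array of a group not compared cannot change a difference between groups. The 34 include exact permutation tests judged at an unadjusted p under 0.05. Among these is Il33 in VHL-KO/AKI against VHL-KO (exact permutation p = 0.0357), which 0 limma alternatives called. The replicate number as a block (replicate block) left 1 member called in AKI against control, Il1rn, while Il1b no longer passed (0.63, limma adjusted p = 0.0539). The block changed no other member count, and the arrays share only a number. With the sex-linked covariate the members called in AKI against control were 0 and the pathway genes called fell from 25 to 0. In VHL-KO/AKI against VHL-KO the pathway genes went from 6 to 0. The share of all genes called in that fit was not computed. That covariate turned Il1rn in VHL-KO against control to 0.063, and in AKI against control Il1a to -0.037, Il18 to -0.45, Nlrp3 to 0.022 and Casp1 to 0.060. In VHL-KO/AKI against VHL-KO it turned Il1rn to -0.56, Il18 to -0.51 and Casp4 to 0.29, and in the interaction Il18 to -0.062. Centring turned Il1a to -0.055 (VHL-KO against control) and 0.024 (VHL-KO/AKI against VHL-KO), Nlrp3 to 0.011 (AKI against control) and the Il33 interaction to 0.0048, which was 0.023 after quantile and 0.042 after cyclic loess scaling. Centring adds the same amount to every gene of an array, so its sign changes come from a shift shared by all genes. The median difference of all genes moved from 0.022 to -0.063 in VHL-KO against control. In VHL-KO/AKI against VHL-KO it moved from -0.0095 to 0.067. The causes of the other changes were not tested.

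Array weights gave 2 members and 14 pathway genes in VHL-KO/AKI against AKI, 2 members in VHL-KO/AKI against VHL-KO, and 1 member and 6 pathway genes in the interaction, and turned Il33 in VHL-KO/AKI against AKI to -0.019. Leaving out control 3 and AKI 4 gave 1 member in VHL-KO/AKI against AKI and 2 in VHL-KO/AKI against VHL-KO, and turned Il33 and Casp4 in the former to -0.038 and 0.0016 and the Il18 interaction to -0.074. Leaving out VHL-KO 1 and AKI 4, chosen after seeing the data, gave 4 members in AKI against control, 2 members and 10 pathway genes in VHL-KO/AKI against AKI and 1 member in VHL-KO/AKI against VHL-KO. It turned Il1a and Casp1 in VHL-KO against control to -0.0017 and -0.12, Il33 and Casp4 in VHL-KO/AKI against AKI to -0.038 and 0.0016, Casp4 in VHL-KO/AKI against VHL-KO to 0.097, and the interactions of Il18 and Casp1 to -0.051 and 0.032. A fit of the compared groups alone gave 3 pathway genes in VHL-KO/AKI against AKI and 2 members in VHL-KO/AKI against VHL-KO. In the latter the filter on dim genes gave 1 member, centring 2, cyclic loess 2 and the exact permutation test 3; that test gave 1 in VHL-KO/AKI against AKI.

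With each array left out in turn, members called ranged from 1 to 4 (AKI against control), 0 to 2 (VHL-KO/AKI against AKI) and 0 to 2 (VHL-KO/AKI against VHL-KO). Pathway genes called ranged from 3 to 10 in VHL-KO/AKI against AKI, 3 to 9 in VHL-KO/AKI against VHL-KO and 0 to 6 in the interaction. Sign changes lay within -0.0017 to 0.086 for Il1a and -0.12 to 0.34 for Casp1 in VHL-KO against control, -0.040 to 0.014 for Nlrp3 in AKI against control, -0.038 to 0.29 for Il33 and -0.21 to 0.0016 for Casp4 in VHL-KO/AKI against AKI, -0.37 to 0.097 for Casp4 in VHL-KO/AKI against VHL-KO, and -0.013 to 0.19 for Il18, -0.27 to 0.059 for Il33 and -0.45 to 0.013 for Casp1 in the interaction. The number of animals limits all of these values, and no gene has a detection call. That limit bears most on low levels, such as those of Il1a and Nlrp3. It also bears on the control levels of Il6 (mean 4.31), Il1r2 (4.32) and Il1f6 (4.49), and on those of the neutrophil list (mean 4.6).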
